A study of Mus musculus with 6 samples.

Results

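The imprinted Dlk1-Dio3 microRNA (miRNA) cluster was followed in a mouse erythroid cell line before and after activation of the transcription factor GATA-1. Members were chosen by name: 37 mouse (mmu-) miRNA names of the cluster were looked up in the probe annotation of the arrays, with or without an arm suffix (-3p, -5p or *). Of these names 36 were found. They carried 44 probes of the 294 that name a mouse miRNA, under 38 array names (of 275 in all) from 32 hairpins. miR-495 was the name without a probe and was not analysed here.

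The study measured total RNA of G1E-ER4 cells, a line of erythroid precursors without GATA-1 of their own that carries a form of GATA-1 responding to estradiol. There were 3 untreated cultures (0 h) and 3 given 1e-07 M estradiol for 24 h, all grown in medium with erythropoietin and stem cell factor. The cultures of each group were grown and harvested separately, per the labels. Each sample was labelled with the dye Hy3 and hybridised beside a common reference in Hy5, which pooled all 6 samples in equal parts and was therefore the same RNA on every array. All 6 arrays came from a single line, and neither a culture kept for 24 h without estradiol nor cells lacking the GATA-1 form was among them, so time in culture, estradiol itself and GATA-1 activity cannot be told apart.

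The Dlk1-Dio3 domain is a textbook imprinted region. Its protein-coding genes Dlk1, Rtl1 and Dio3 are transcribed from the paternal chromosome, and its noncoding RNAs, among them Meg3, Rian, Mirg and the miRNAs carried by these long transcripts, from the maternal one. The miRNAs are best known from embryo, placenta and brain, and the locus has also been linked to the upkeep of haematopoietic stem cells. A miRNA is cut from a hairpin into a 5p and a 3p arm, and the loaded arm finds its target transcripts mainly through its seed, bases 2 to 8.

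All 32 hairpins were matched to RefSeq (GRCm38.p6) and lay on the plus strand within chr12:109585789-109743795, a stretch of 158.0 kb. Of these, 7 (miR-337, miR-540, miR-431, miR-433, miR-127, miR-434 and miR-136) lay within 9.6 kb at chr12:109585789-109595388, inside the span of Rtl1, to which they are antisense. The hairpins of miR-341 and miR-370 lay 6.8 kb from end to end at chr12:109611500-109618336, within Rian. The other 23 made up the miR-379 to miR-410 group, 34.7 kb at chr12:109709060-109743795, and the last 6 of these (miR-154, miR-377, miR-541, miR-409, miR-412 and miR-410) lay within the span of Mirg.

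The mature sequences of the 11 members whose probes were bright enough to test are shown because every tested value below belongs to them. They are from RefSeq (GRCm38.p6), 5′ to 3′, with the seed in capitals. An array name without an arm does not say which arm its probe reads, so both arms are given for those names. The arm of miR-379 that comes close to miR-411 is added for comparison.
mmu-miR-433-5p: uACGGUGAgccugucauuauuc
mmu-miR-341-5p: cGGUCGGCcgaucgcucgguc
mmu-miR-341-3p: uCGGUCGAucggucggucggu
mmu-miR-370-5p: cAGGUCACgucucugcaguu
mmu-miR-370-3p: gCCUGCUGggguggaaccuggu
mmu-miR-379-3p: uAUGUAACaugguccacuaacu
mmu-miR-411-5p: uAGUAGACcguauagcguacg
mmu-miR-411-3p: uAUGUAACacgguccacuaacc
mmu-miR-329-5p: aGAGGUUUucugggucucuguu
mmu-miR-329-3p: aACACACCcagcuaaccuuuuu
mmu-miR-494-5p: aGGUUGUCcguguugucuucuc
mmu-miR-494-3p: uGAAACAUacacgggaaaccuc
mmu-miR-300-5p: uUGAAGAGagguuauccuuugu
mmu-miR-300-3p: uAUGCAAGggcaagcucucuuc
mmu-miR-381-5p: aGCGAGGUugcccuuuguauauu
mmu-miR-381-3p: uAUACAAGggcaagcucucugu
mmu-miR-382-5p: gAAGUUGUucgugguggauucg
mmu-miR-382-3p: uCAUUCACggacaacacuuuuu
mmu-miR-134-5p: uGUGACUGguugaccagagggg
mmu-miR-134-3p: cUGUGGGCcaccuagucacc
mmu-miR-485-3p: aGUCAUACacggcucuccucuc

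The cluster is not a seed family. The 60 mature arms found for its members held 57 distinct seeds, and 3 seeds were shared by a pair of arms each: AUGUAAC by miR-379-3p and miR-411-3p, GGUUGUC by miR-494-5p and miR-410-5p, and UGGAUAU by miR-376c-5p and miR-376b-5p. Some arms are close enough in sequence that a probe could read its neighbour as well. miR-379-3p and miR-411-3p matched at 20 of 22 positions, miR-300-3p and miR-381-3p at 19 of 22 with different seeds, miR-376b-3p and miR-376a-3p at 18 of 21, and miR-376c-5p and miR-376b-5p at 21 of 22. Values of these names are uncertain to that extent. No sequence was found for miR-485-5p or for the 3p arms of miR-376c, miR-487b and miR-539. Seeds and close matches of those arms are therefore not in these counts.

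Under the background rule used here, most of the cluster gave no signal above background in these cells. A probe was taken as above background on an array when, in a share of 0.5 or more of its 4 spots, the median foreground lay at least 2 background SD over the local background. In the sample channel 31 of 44 probes were above background on none of the 6 arrays, 13 on at least 1, and 2, those of miR-494 and miR-370, on all 6. The rule decides this count: against the 95th percentile of the empty control spots of the same array, 8 of 44 were above on none and 36 on at least 1. Among the other 250 miRNA probes, 192 were above background on none and 23 on all 6 by the 2 SD rule. Against the percentile, 29 of these 250 were above on none and 72 on all 6, beside 13 of 44 cluster probes on all 6. By position and the 2 SD rule, 2 of 10 probes of the Rtl1 antisense hairpins (miR-433-5p and miR-434-3p) were above background on any array. So were both probes of miR-341 and miR-370 and 9 of 32 probes of the miR-379 to miR-410 group.

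The number of cluster probes above background was 5, 8 and 5 on untreated arrays 1 to 3, and 12, 13 and 11 on estradiol arrays 1 to 3. The groups did not overlap at this threshold. At 3 background SD they tied, with 2, 6 and 2 against 8, 8 and 6, and against the percentile of empty spots they tied too, with 27, 14 and 24 against 32, 27 and 28. In the reference channel the untreated arrays gave 7, 13 and 6 cluster probes and the estradiol arrays 15, 15 and 13, although its RNA was the same throughout. The remaining 250 miRNA probes went the same way, with 33 to 39 above background in the sample channel on untreated arrays and 46 to 49 on estradiol arrays. Counts were thus higher on the estradiol arrays in both channels, with a tie at 13 between groups in the reference, and the part of the arrays' brightness in the counts of the sample channel was not tested.

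**Figure D1:**
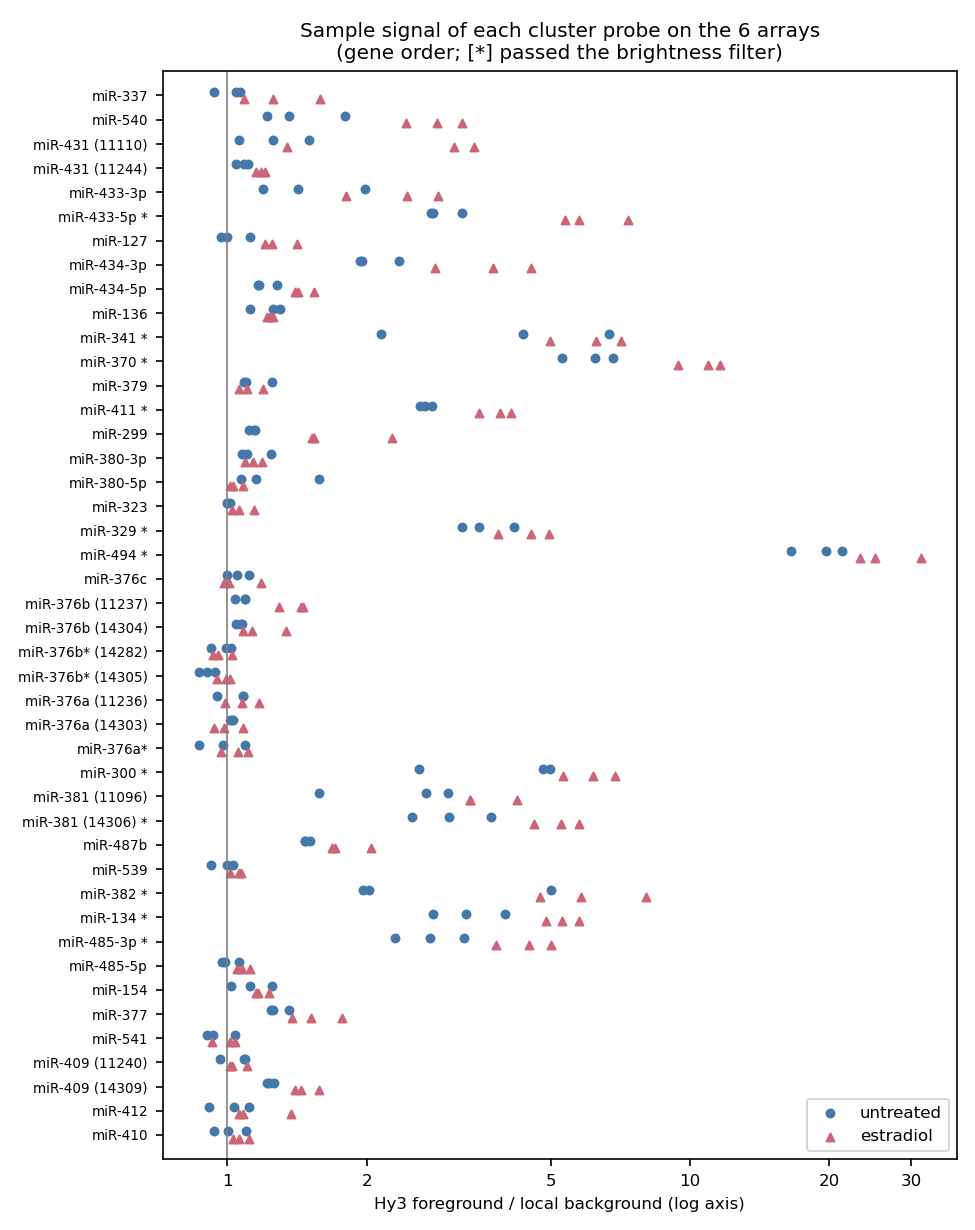
Sample (Hy3) foreground over local background of the 44 cluster probes on each of the 6 arrays, in gene order along chromosome 12, on a log axis; a space and asterisk after a name mark the 11 probes that passed the brightness filter, and numbers in brackets tell probes of the same name apart. miR-494 stands farthest to the right, at 16.5 to 31.5, and most other probes lie near the line at 1.

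The brightest cluster probe was that of miR-494. Its sample signal was 16.5, 21.3 and 19.7 times the local background on untreated arrays 1 to 3 and 31.5, 23.3 and 25.1 times on estradiol arrays 1 to 3. The estradiol arrays were all higher, yet the reference signal of the same spots also went from 30.9 ± 6.16 times background (SD, n = 3) on the untreated arrays to 52.8 ± 8.72 times (n = 3) on the estradiol arrays. For miR-370, the next brightest, the sample signal was 6.80, 5.28 and 6.24 times background on untreated arrays and 11.6, 9.43 and 10.9 times on estradiol arrays. Its reference signal went from 9.03 ± 1.02 to 19.8 ± 3.02 times background (SD, n = 3 each). Next came miR-341, miR-300 and miR-382, with means over the 6 arrays of 5.25, 5.12 and 4.60 times background. Signals of different probes depend on the probe and do not rank the amounts of these miRNAs.

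The same held over the 11 cluster probes that passed the brightness filter, which asked for a sample signal above background on all 3 arrays of a group. In the sample channel 8 of them had every estradiol array above every untreated array, where 64.7% of all 51 probes that passed did. In the reference channel it was 9 of 11, against 72.5% of all that passed. Both channels did so for 8 of the 11. Of the 11, 9 passed the filter through the estradiol arrays alone, which favours a higher sample signal there, so nothing is read from their count. Among the 33 cluster probes that did not pass, the share was 45.5% in the sample and 48.5% in the reference channel, and over all 294 probes 39.5% and 42.2%. The ratio of sample to reference on the same array takes out what both channels share, and all comparisons between groups were made on its log2, after normalization within each array.

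**Figure D2:**
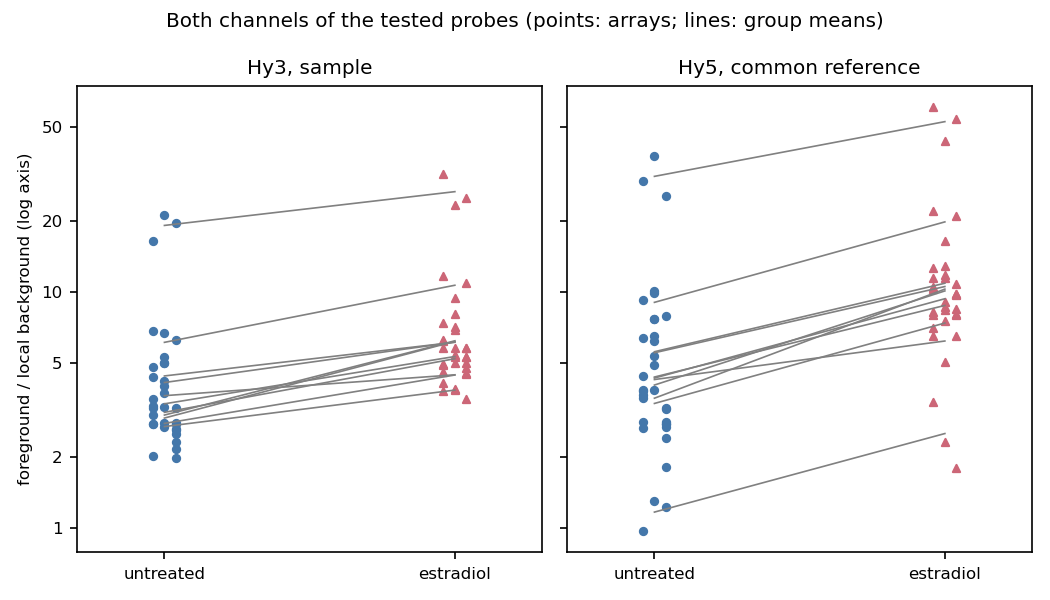
Foreground over local background (log axis) of the 11 tested cluster probes in the sample channel (left) and the common reference channel (right). Points are arrays, 3 per group, and lines join the group means of a probe; the lines rise in both panels, from 30.9 to 52.8 for miR-494 in the reference, and the lowest line of the right panel is miR-411.

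No cluster miRNA passed the test between estradiol and untreated cells. Of the 11 tested probes 0 passed an adjusted p of 0.05 (limma, Benjamini-Hochberg over all 51 probes tested), where 13.7% of the tested probes passed, and 0 of the 11 had an unadjusted p under 0.05, where 29.4% did. The smallest adjusted p among them was 0.23. By direction, 10 of 11 differences were below 0 and 1 above. Of the other 40 tested probes 20 were lower and 20 higher. On leaving out 1 array, 7 to 11 of the 11 were below 0. With the normalization within arrays fitted only on probes above background in both channels, 7 of 11 were. The median of the 11 was -0.09 on the log2 scale beside -0.05 over all 51 probes. But in the sample channel alone, brought to the same distribution on every array by quantile normalization, 3 of 11 were below 0, and 21 of all 51. Because of how the probes passed the filter, these counts describe the probes that could be measured and not the cluster. In bulk RNA of this kind, fewer cells with a miRNA and less of it per cell cannot be told apart.

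For mmu-miR-494 the log2 ratio of sample to reference was -0.24, 0.12 and 0.12 on untreated arrays 1 to 3 and -0.04, -0.06 and -0.10 on estradiol arrays 1 to 3. The estradiol values lay inside the untreated range. The difference was -0.06 ± 0.10 (SE; adjusted p = 0.76, limma). Without the reference, on the sample channel alone after quantile normalization between arrays, it was -0.40 and passed (adjusted p = 0.047, limma). The sample signal over local background, not normalized in this way, was higher on every estradiol array. For mmu-miR-370, described in human liver cells as a repressor of the fatty acid oxidation enzyme CPT1A, the log2 ratios were 0.07, -0.09 and -0.02 on untreated arrays and -0.04, -0.12 and 0.00 on estradiol arrays. The ranges overlapped, with a difference of -0.04 ± 0.08 (SE; adjusted p = 0.83, limma).

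mmu-miR-341, the other hairpin within Rian, spread more among the untreated arrays, with log2 ratios of 0.45, 0.12 and -0.31, than among the estradiol arrays, with 0.08, -0.22 and -0.04. The difference of -0.15 ± 0.18 (SE) did not pass (adjusted p = 0.65, limma). Single untreated arrays decided it: without array 3 it was -0.35 with an adjusted p of 0.016, and without array 1 it was 0.03 with an adjusted p of 0.948 (limma). In the fit of all probes described below, no alternative brought it past the threshold (lowest adjusted p = 0.22, limma).

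In the Rtl1 antisense group, whose members are known in mouse to direct cleavage of the Rtl1 transcript, mmu-miR-433-5p was the tested one. Its log2 ratios were 0.23, 0.16 and -0.27 on untreated arrays and 0.02, -0.08 and 0.02 on estradiol arrays. The estradiol values again lay within the untreated range, with a difference of -0.06 ± 0.14 (SE; adjusted p = 0.84, limma). Its signal over background had a wide gap between the groups in both channels, 2.91 ± 0.256 against 6.17 ± 1.05 in the sample and 3.54 ± 0.311 against 10.3 ± 2.15 in the reference (SD, n = 3 each). The probe passed the filter through the estradiol arrays alone, which favours such a gap in the sample. Over all 51 tested probes the median went from 4.39 to 6.53 in the sample and from 5.53 to 10.5 in the reference.

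In the miR-379 to miR-410 group, which neurons are known to transcribe on activity through Mef2, 8 probes were tested. mmu-miR-485-3p was the only tested probe of the cluster without overlap between the groups, at 0.32, 0.04 and 0.06 on untreated arrays and -0.24, -0.01 and -0.07 on estradiol arrays. Its difference of -0.24 ± 0.12 (SE) did not pass (adjusted p = 0.23, limma), and groups without overlap were found for 29.4% of all tested probes. The probe of its other arm, miR-485-5p, was above background on no array and differed by 0.09.

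mmu-miR-134, which limits dendritic spine size in rat neurons, had log2 ratios of 0.17, -0.02 and 0.06 on untreated arrays and -0.03, 0.01 and -0.04 on estradiol arrays. The difference was -0.09 ± 0.09 (SE; adjusted p = 0.64, limma), with overlapping ranges. mmu-miR-329, which acts with miR-134 in dendrite growth of neurons, had ratios above the reference on every array. They were 0.26, 0.17 and 0.51 on untreated and 0.17, 0.15 and 0.28 on estradiol arrays. The reference pooled the same 6 samples, so ratios above it on all 6 arrays cannot all be read as amounts. The groups differed by -0.11 ± 0.12 (SE) with an adjusted p of 0.65 (limma). mmu-miR-300 and miR-382 differed by -0.09 ± 0.10 and -0.03 ± 0.11 (SE; adjusted p = 0.65 and 0.89, limma). mmu-miR-381 was the single tested probe with a positive difference, 0.11 ± 0.15 (SE; adjusted p = 0.72, limma), and its untreated values ran from -0.49 to 0.12. Leaving aside miR-411, the 95% intervals of the 10 tested differences lay between -0.54 and 0.44 on the log2 scale, or between 1.46-fold lower and 1.35-fold higher. These bounds hold for the main normalization with 3 arrays a group and do not show that the miRNAs stayed equal. In the sample channel alone the differences of miR-382 (0.93) and miR-433-5p (0.84) lay outside them, and neither passed. Those of the other probes among the 10 lay within them.

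mmu-miR-411 stood apart from the other 10 by its level against the reference. Its log2 ratio was 2.57, 2.17 and 1.88 on untreated arrays and 0.98, 1.92 and 2.13 on estradiol arrays, whereas the other tested probes had ratios between -0.49 and 0.51 on all arrays. The ranges of the groups overlapped, and estradiol array 1 was the lowest of the 6. The difference of -0.53 ± 0.33 (SE) did not pass (95% interval -1.28 to 0.22, adjusted p = 0.34, limma). Without estradiol array 1 it was -0.18, the smallest on leaving out 1 array. Without untreated array 1 it was -0.35, and without estradiol array 3 it was -0.76, the largest. On the sample channel alone the difference was 0.14, and its sign turned under 2 of 19 alternatives with the brightness filter. The reference is a mix of the same 6 samples, so sample values above it on all 6 arrays cannot all be read as amounts. In the reference channel the probe was above background on 0 of 6 arrays, at 0.964 to 3.41 times background, and in the sample channel on 0 of 3 untreated and 3 of 3 estradiol arrays, at 2.61 to 4.10 times. The ratio of this probe thus rests on a reference signal near background, and no fold is given. In the authors' deposited table its log2 ratios were 2.37, 2.49 and 1.85 on untreated and 0.87, 1.53 and 2.04 on estradiol arrays. With the within-array curve fitted only on the 34 to 58 probes per array above background in both channels, its difference in the fit of all probes was -1.08 (adjusted p = 0.0084, limma). That curve moved the median of all 294 probes to -1.07 as well, whereas the median of the 51 tested probes was -0.009. With the brightness filter, miR-411 passed under 0 of its 19 alternatives.

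**Figure D3:**
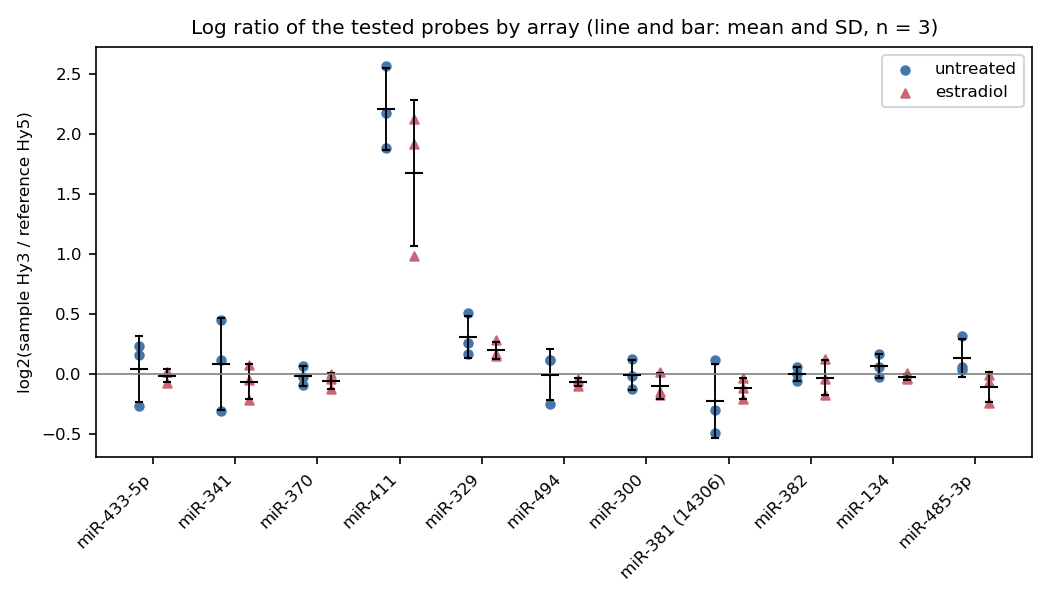
Log2 ratio of sample (Hy3) to common reference (Hy5) of the 11 tested cluster probes, in gene order. Points are arrays, 3 per group, with the group mean and SD; miR-411 lies between 0.98 and 2.57, and all other probes lie between -0.49 and 0.51 with no gap between the groups other than that of miR-485-3p.

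Fitting all 294 miRNA probes gave each of the 44 cluster probes a value, although 31 of them carried no sample signal above background by the 2 SD rule and their differences are between intensities close to background. Again 0 of 44 passed, where 6.46% of all 294 probes did, and 3 of 44 had an unadjusted p under 0.05, where 17.3% did. The differences ran from -0.67 to 0.42, 31 below 0 and 13 above, with a median of -0.08 beside -0.02 over all 294 probes. Of the other 250 probes 122 were below 0. In the sample channel alone 17 of 44 (38.6%) were below 0 with a median of 0.14, where 54.4% of all 294 probes were below 0 with a median of -0.07. Groups without overlap were found for 7 of 44 cluster probes, 5 of them lower, and for 21.4% of all probes, 63 in number with 21 lower. Of the 7 cluster probes, 6 had not passed the brightness filter. The median was -0.05 in the Rtl1 antisense group (10 probes), -0.10 for miR-341 and miR-370 and -0.09 in the miR-379 to miR-410 group (32 probes). These medians lay close to each other and to 0. But 8 of the 10 and 23 of the 32 probes were above background on no array, so little is learned of the stretches themselves.

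The 5 most negative differences in that fit were those of mmu-miR-323 (-0.67), miR-411 (-0.53), miR-380-5p (-0.45), miR-434-5p (-0.43) and a probe of miR-376a (-0.33). Of these only miR-411 was above background on any array. miR-323, miR-434-5p and miR-380-5p were the members with an unadjusted p under 0.05 (0.015, 0.015 and 0.028), and their adjusted p-values were 0.14, 0.14 and 0.19 (limma). The 5 most positive differences were those of mmu-miR-539 (0.42), a probe of miR-376b* (0.34), miR-541 (0.25), a probe of miR-409 (0.17) and miR-433-3p (0.16), none above background in the sample channel on any array. The adjusted p of miR-539 was 0.43 (limma).

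**Figure D4:**
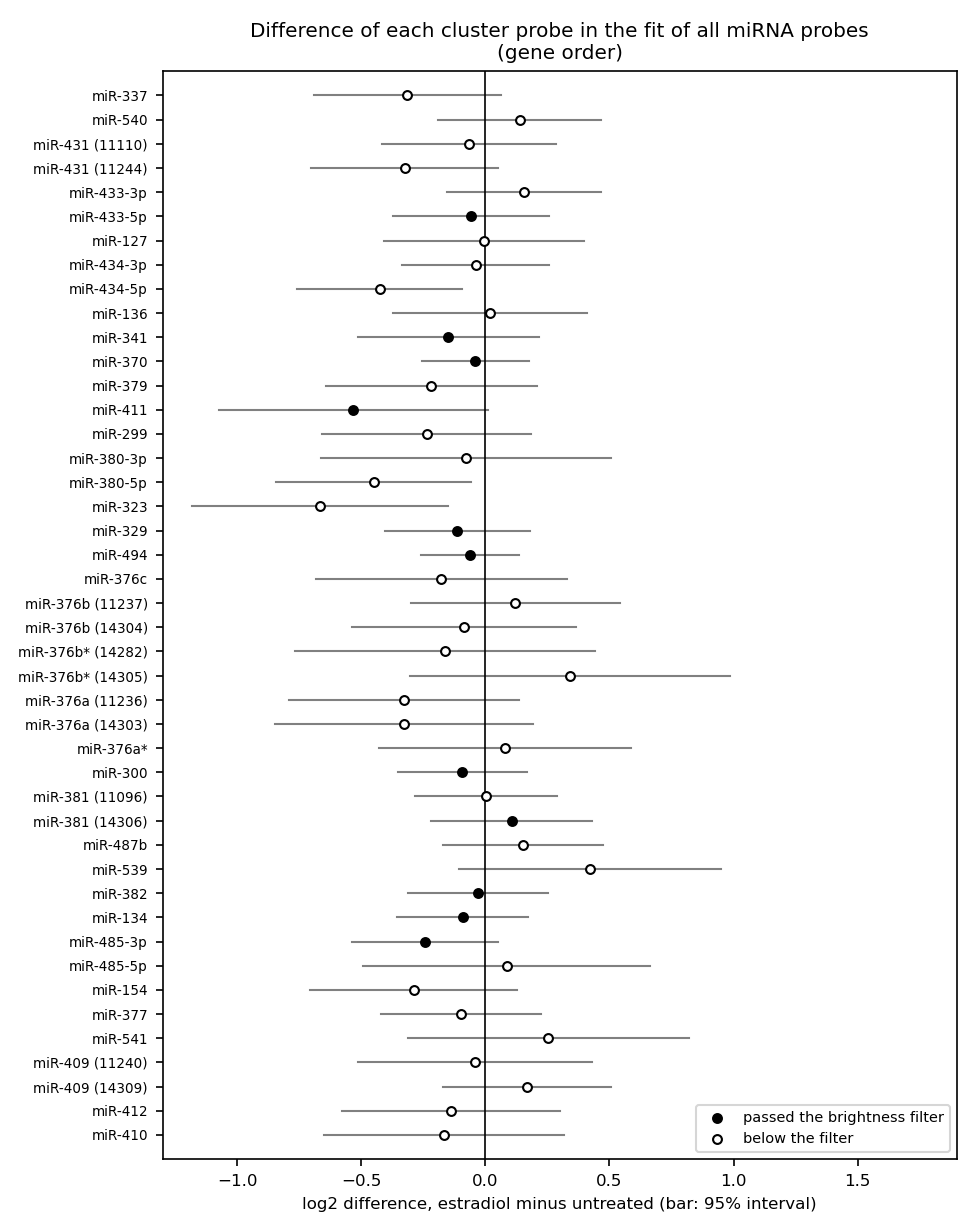
Difference in log2 ratio, estradiol minus untreated, of the 44 cluster probes in gene order from the fit of all 294 miRNA probes, with 95% intervals. Filled points mark the 11 probes that passed the brightness filter; the points run from -0.67 (miR-323) to 0.42 (miR-539), and no probe passed an adjusted p of 0.05.

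Members with more than 1 probe show how far the dim values can be read. The probes of miR-376a differed by -0.33 and -0.33, those of miR-431 by -0.07 and -0.32, and those of miR-381 by 0.00 and 0.11. Those of miR-376b (0.12 and -0.09), miR-376b* (0.34 and -0.16) and miR-409 (-0.04 and 0.17) took opposite signs. Between arms of 1 hairpin, miR-433-5p and miR-433-3p differed by -0.06 and 0.16, miR-434-3p and miR-434-5p by -0.04 and -0.43, miR-380-3p and miR-380-5p by -0.08 and -0.45, and miR-376a* by 0.08. None of these passed the test, and among them miR-433-5p, miR-434-3p and both probes of miR-381 were above background on any array. Without any background correction 1 probe of miR-376a passed in the fit of all probes, at -0.14 (adjusted p = 0.045, limma). The remaining 12 probes, those of miR-337, miR-540, miR-127, miR-136, miR-379, miR-299, miR-376c, miR-487b, miR-154, miR-377, miR-412 and miR-410, were above background in the sample channel on no array, and their differences ran from -0.31 to 0.15.

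The erythroid miRNAs on the same arrays served as reference points. miR-451, an erythroid miRNA that rises in red cell maturation, was above background on 0 of 3 untreated and 3 of 3 estradiol arrays. In the sample channel this was a difference of at least 4.96-fold, a bound that was not itself tested. The test was of its log2 ratio of sample to reference, which was higher on the estradiol arrays (adjusted p = 2.3e-09, limma). Of the 4 erythroid markers listed, miR-451, miR-144 and miR-16 rose past the threshold in the fit of all probes, and miR-486 did not (adjusted p = 0.18, limma). The probes of miR-144 and miR-486 were above background in the sample channel on no array, and that of miR-16 on 2 estradiol arrays. A further 4 probes of the same region, for miR-369-3p, miR-369-5p (2 probes) and miR-543, were above background on no array and 0 of them passed. Within the 11 tested cluster probes, the median log2 ratio per array was 0.17, 0.12 and 0.00 on untreated arrays and -0.04, -0.06 and -0.03 on estradiol arrays, while over all 51 tested probes it was 0.08, 0.06 and 0.08 and then 0.02, 0.03 and 0.00. The estradiol medians lay below the untreated ones for the tested cluster probes and over all tested probes alike. Over all 44 cluster probes the groups overlapped, with medians of -0.05, -0.05 and -0.13 on untreated and -0.16, -0.13 and -0.08 on estradiol arrays.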

How the data were processed

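Total RNA of 6 cultures was measured on 2-colour miRNA arrays. The deposited scanner tables hold foreground and local background intensity per spot and channel, as given by the authors' spot finder and not background-subtracted. The authors' deposited log2 ratios, lowess-normalized per the file headers, served as an alternative. Here, normexp (offset 50) corrected mean foreground for median background, global loess that ignored control spots normalized log2(Hy3/Hy5) within each array, and a probe's value is the mean of its 4 spots. Spots with a shape or contamination flag were dropped (111 to 212 of 2240 per array), and saturated spots kept. No dye swap is described in the labels, so dye bias is not balanced.

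All 294 miRNA probes, or the 51 bright ones, were compared with limma 3.58.1 (lmFit, eBayes with intensity trend, Benjamini-Hochberg, 0.05) in R 4.3.3, estradiol minus untreated, and the fit was tested on simulated data. The bound for miR-451 sets the mean Hy3 signal on estradiol arrays (after loess and Aquantile) against the lowest signal above background on each untreated array; without dye swaps it is open to dye bias. Alternatives changed background correction, normalization, flags, filter, reference use and replicates. For the sample channel alone, log2 Hy3 after normexp was quantile-normalized between arrays. Named are all tested members, the 5 brightest, the 5 largest differences each way, members with several probes or arms, and the rest once. The precision is limited by 3 arrays a group. The replicate numbers were not taken to pair samples. Members and lists were chosen with earlier results of these data known. Sequences came from RefSeq GRCm38.p6 by name, miR-299 through a synonym. Figures were drawn with matplotlib 3.10.9.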

Additional observations from a re-analysis of the deposited data

How the results depend on the processing

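Of 927 values of single cluster probes under the alternatives, 4 passed the threshold, each under 1 setting: miR-494 in the sample channel alone, miR-341 without untreated replicate 3, miR-376a without background correction and miR-411 with the curve on bright probes. Hence the count of cluster probes past the threshold, 0 with and without the brightness filter, became 1 with the filter in the sample channel alone and 0 to 1 on leaving out 1 replicate, and 1 without the filter under no background correction and under the curve on bright probes. Over all probes with the filter, 5 of 51 passed in the sample channel alone and 9 of 51 without untreated replicate 3. Without the filter, 24 of 294 passed under no background correction and 22 of 294 under the curve on bright probes. Over all alternatives of these 4 cluster probes in the same fit, adjusted p-values (limma) ran from 0.047 to 0.999 for miR-494, 0.016 to 0.948 for miR-341, 0.045 to 0.82 for miR-376a and 0.0084 to 0.809 for miR-411. The causes were not tested. The median difference of all 44 cluster probes (-0.08) was -0.028 without background correction, 0.14 in the sample channel alone and -1.19 with the curve on bright probes, which moved all 294 probes to a median of -1.07. On leaving out 1 replicate it ran from -0.10 to -0.06. That of the tested probes (-0.09) was -0.026, 0.14 and -0.04 under the same settings. Median centring moved the median of all 51 tested probes from -0.05 to -0.11 and that of the cluster to -0.13. Of the 44 probes, 70.5% were below 0, 38.6% in the sample channel alone and 88.6% with the curve on bright probes; over all 294 probes these shares were 52.0%, 54.4% and 87.1%. The mean number of cluster probes above background was 6 on untreated and 12 on estradiol arrays. It was 11.3 and 15.7 at 1 background SD and by the spot finder's empty flag, 3.33 and 7.33 at 3 background SD, and 21.7 and 29 against the 95th percentile of empty control spots. The empty flag as the filter and the percentile were chosen after seeing the data. With the replicate number as a block, 0 cluster probes passed in either fit, where 8 of all 51 tested probes and 19 of all 294 did. Deviations of same-numbered arrays correlated at 0.07, -0.11 and -0.12 across probes, and those of unlike-numbered arrays at -0.18 to 0.29. These values gave no sign of pairing by number, but with 3 arrays a group they cannot exclude it.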
